A study of Mus musculus with 44 samples.

Results

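The neuropeptide processing enzymes and granins are genes whose products act in the secretory granules where neuropeptide precursors are turned into active peptides. Some cut or modify the precursors, and others act on a convertase or help to pack the granule. Members were found by symbol: every Affymetrix probeset with values and every probe of the Illumina normalized table annotated to the listed genes was taken. Of 10 listed genes, 9 were measured, as 10 probesets of 9 genes on the Affymetrix array and 9 probes of 7 genes on the Illumina array, out of 17242 and 9807 annotated genes in all. These are Pam, Pcsk1, Pcsk1n, Cpe, Scg2, Scg5, Chga, Chgb and Qpct, and 1 listed gene was not analysed here. The genes were chosen by their known roles and by strain differences already seen on these same arrays, that of Pam on the Affymetrix arrays among them, so the strain differences below are a description without a test, and the calls of the members support nothing by themselves. Pcsk1 and Cpe were measured on the Affymetrix array only.

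The study compared the striatum of 2 inbred mouse strains, C57BL/6J (B6) and DBA/2J (D2), in naive adult mice with 1 array per mouse. The Affymetrix arrays held 5 females and 5 males of each strain (20 mice), and the Illumina MouseRef-8 v2.0 arrays held 12 males of each strain (24 mice). No mouse carried a transgene or received a treatment, and the strains differ across the whole genome, so a difference between them cannot be tied to a single locus here. On the Affymetrix arrays a value is an RMA expression estimate made by the authors, in log2 units. Illumina values went through a variance stabilizing transformation (VST), also by the authors, whose scale follows log2 at high signal and compresses differences at low signal. All differences are B6 minus D2, so a negative value means a higher level in D2.

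Neuropeptides are made as inactive precursors that enter the regulated secretory pathway. In the maturing granule, prohormone convertases cut the precursor at pairs of basic residues, carboxypeptidase E trims the exposed basic residues, and many peptides are then amidated at the C-terminus or cyclised at the N-terminus, changes that protect the peptide and can be needed for receptor binding. Granins, which are acidic and bind calcium, help to pack the granule core. In the striatum, the projection neurons make enkephalin, dynorphin and substance P, and the last of these is an amidated peptide.

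The probes of the 3 genes on which the strains differed most are shown here, as the first 30 bases of each 50-base Illumina probe, because each Illumina value below rests on a single probe of this kind. They were read from the probe identifiers of the deposited table, which encode the sequence. Pam lies on chromosome 1, Scg5 on chromosome 2 and Qpct on chromosome 17.
Pam ILMN_2626294: tggtgtgtttccggatgtcttatttttaga
Scg5 ILMN_2592953: tgcctccataccaatgcctgtgctttctgc
Qpct ILMN_2814865: ccattccttgaaggatgtctctggttccaa
The authors masked Affymetrix probes that span a SNP between the strains, so the Affymetrix values rest on the remaining probes of each probeset. Their analysis also dropped Illumina probes over SNPs, a step that was not repeated here, and whether one lies under these 3 probes was not tested.

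The array labelled B6 female 64 stood apart from the other Affymetrix arrays. It was placed on a scale of antilog values, not log2, with the D2 mean at 0 and the mean of the other B6 arrays at 1. Its median position over 230 probesets was 0.52. These probesets, members left out, were chosen because they separated the other arrays, with strain means at least 1 log2 unit apart. By that choice the other B6 arrays lay near 1, at 0.98 to 1.02, and the D2 arrays near 0, at -0.02 to 0.04. Array 64 was kept as labelled, and values without it are given for each member tested. For the Illumina arrays the mean bead signal was 1223 to 1822 in B6 and 599 to 1849 in D2, and the D2 arrays 3, 5, 6 and 12 were the dimmest of all. Genes that mark striatal neurons were measured in both strains (12 genes, mean log2 level of 10.80 to 11.84 on B6 and 10.69 to 11.32 on D2 Affymetrix arrays). Choroid plexus genes, a sign of neighbouring tissue, ranged from 6.05 to 9.40 on B6 and from 5.91 to 9.39 on D2 arrays. Genes of cortical excitatory neurons ranged from 7.74 to 9.37 and from 8.42 to 9.61. Those of thalamus, septum and pallidum ranged from 7.76 to 9.67 and from 7.58 to 8.92. Hypothalamic genes ranged from 6.49 to 8.13 and from 6.59 to 7.24. The part of these tissues in the member values was not tested. Since whole tissue was measured, fewer cells that express a gene and less RNA per cell cannot be told apart.

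Pam encodes the copper-dependent monooxygenase that converts glycine-extended peptides into amidated ones. On the Affymetrix arrays its probeset had log2 values with a lowest of 6.75, a median of 7.19 and a highest of 8.30 in B6 and a lowest of 9.08, a median of 9.24 and a highest of 9.64 in D2. Every D2 array lay above every B6 array. The means were 7.33 ± 0.47 (SD, n = 10) and 9.32 ± 0.19 (SD, n = 10), a difference of -1.98 with a standard error of 0.15, or a 3.96-fold higher level in D2. The highest B6 value was that of array 64, at 0.67 on the antilog scale between the strains set by the other arrays. Without it the difference was -2.09, a 4.26-fold higher level in D2, and the highest B6 value was 7.77. The difference was -2.01 in females and -1.96 in males, and the strains did not overlap in either sex.

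The Pam probe on the Illumina arrays, ILMN_2626294, had VST values from 10.09 to 10.94 in B6, with a median of 10.70, and from 10.32 to 11.51 in D2, with a median of 11.15. The strains overlapped, although none of the B6 arrays exceeded the D2 median and 10 of the 12 D2 arrays exceeded the B6 median. The means were 10.66 ± 0.23 (SD, n = 12) and 11.07 ± 0.33 (SD, n = 12), a difference of -0.41 with a standard error of 0.11. The 2 lowest D2 values, 10.32 and 10.69, came from the dim arrays 5 and 6. Without the 4 dim arrays the difference was -0.52, with the other 8 D2 arrays at 10.91 to 11.51, and their part in the difference was not tested further. The bead signal of this probe before normalization was 1920 ± 465 for B6 and 2253 ± 955 for D2 (SD, n = 12 each). The direction was therefore the same on both array types, while the call was not. The Illumina probe narrowly missed the threshold of 0.01, with an adjusted p of 0.0103 in limma, given as a description. The different scales and probes do not allow the sizes to be set against each other.

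Scg5 encodes the granule protein 7B2, the chaperone that a prohormone convertase needs to mature. Its Affymetrix probeset had B6 log2 values of 11.23 to 12.15, with a median of 11.39, and D2 values of 12.28 to 12.46, with a median of 12.39. No B6 array reached the lowest D2 array, and the D2 arrays were tightly grouped. The means were 11.46 ± 0.27 (SD, n = 10) and 12.39 ± 0.06 (SD, n = 10), a difference of -0.92 with a standard error of 0.09, or a 1.90-fold higher level in D2. Array 64 was the highest B6 array here too, at 12.15 against 11.59 for the next. Without it the difference was -0.999, a 2.00-fold higher level in D2. Females differed by -0.90 and males by -0.94, and the strains did not overlap in either sex.

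The Illumina probe ILMN_2592953 for Scg5 separated the strains as well. Its B6 arrays had VST values of 13.76 to 14.29 around a median of 13.98, and its D2 arrays 14.48 to 15.29 around a median of 15.10. The means were 14.00 ± 0.15 (SD, n = 12) and 15.04 ± 0.23 (SD, n = 12), a difference of -1.04 with a standard error of 0.08. The lowest D2 values came from the dim arrays 5 and 6, and without the 4 dim arrays the difference was -1.10. Before normalization the bead signal was 19849 ± 2810 for B6 and 33804 ± 13001 for D2 (SD, n = 12 each).

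Qpct encodes glutaminyl cyclase, which closes an N-terminal glutamine into pyroglutamate, an end found on thyrotropin-releasing hormone among others. It ran the other way, with higher levels in B6. The Affymetrix probeset had log2 values of 8.14 to 8.74 on the B6 arrays (median 8.41) and of 7.59 to 8.17 on the D2 arrays (median 7.89). Only the lowest B6 and the highest D2 array overlapped, a female and a male, and within each sex the strains were apart. The means were 8.42 ± 0.17 (SD, n = 10) and 7.88 ± 0.22 (SD, n = 10), a difference of 0.54 with a standard error of 0.09, or a 1.46-fold higher level in B6. The difference was 0.51 in females, 0.57 in males and 0.52 without array 64.

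For the Illumina probe ILMN_2814865 of Qpct, VST values were 9.51 to 10.01 on B6 arrays (median 9.78) and 9.06 to 9.53 on D2 arrays (median 9.29). Every B6 array lay above the D2 median, and the ranges met only at their edges. The means were 9.76 ± 0.15 (SD, n = 12) and 9.31 ± 0.13 (SD, n = 12), a difference of 0.45 with a standard error of 0.06, and 0.42 without the 4 dim arrays. The probe was detected on 12 of 12 B6 and 11 of 12 D2 arrays, at bead signals of 850 ± 131 and 479 ± 147 (SD, n = 12 each), so it was a dim probe in D2. Some markers of cell types were also called for strain. Over all features, 4.70% of Affymetrix probesets and 5.36% of Illumina probes were called higher in B6, and 5.00% and 4.41% higher in D2. Of 15 oligodendrocyte probes 9 were called higher in B6 on the Illumina arrays, with a mean level over the list of 12.67 to 13.09 in B6 and 12.23 to 12.61 in D2, and 2 of 17 on the Affymetrix arrays, at 11.16 to 11.85 and 10.55 to 11.64. Of 8 microglial probes 4 were called higher in B6 on the Illumina arrays, at 10.05 to 10.24 and 9.71 to 9.97, and 3 of 10 on the Affymetrix arrays, at 9.07 to 9.42 and 8.80 to 9.05. Of blood vessel probesets 3 of 14 were called higher in B6 on the Affymetrix arrays, at 8.79 to 9.06 and 8.47 to 9.06, and 0 of 7 probes on the Illumina arrays. Striatal neuron markers had 2 of 27 and 2 of 11 called higher in B6. Among astrocyte markers, Slc1a2 alone was called, higher in D2 at 1 of 19 Affymetrix probesets and 2 of 12 Illumina probes and higher in B6 at 1 Illumina probe. The Affymetrix counts for striatal neuron and astrocyte markers were near the shares over all probesets. The part of these cell types in the differences of Pam, Scg5 and Qpct was not tested.

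**Figure D1:**
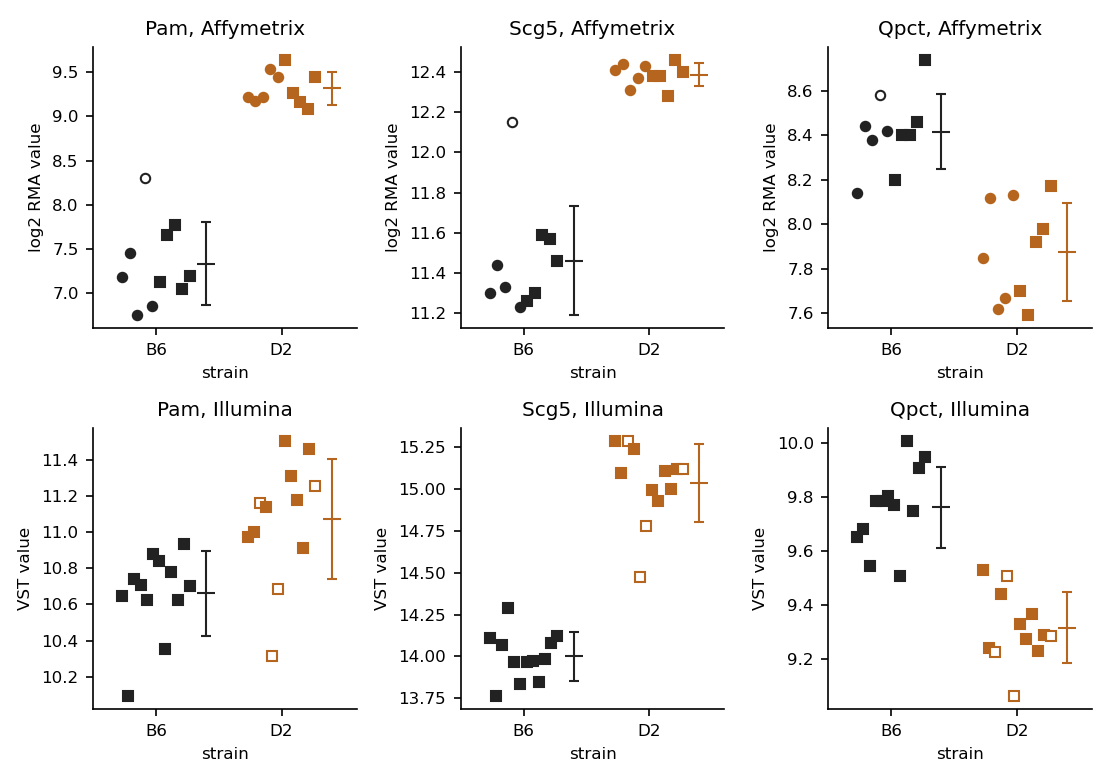
Values of Pam, Scg5 and Qpct on each array, by strain, as log2 RMA values (Affymetrix, upper row) and VST values (Illumina, lower row). Circles are females, squares are males, and bars show mean ± SD. Open symbols mark Affymetrix array B6 64 and the 4 dim D2 Illumina arrays. D2 lies above B6 without overlap for Scg5 on both array types and for Pam on the Affymetrix arrays. For Qpct the B6 arrays are higher, with ranges that overlap at their edges on both array types.

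Among all members with values, 9 of the 10 Affymetrix probesets passed the filter on mean level, and 2 of them were called higher in D2 (Pam and Scg5), where 5.00% of all 19437 probesets tested were called higher in D2. Of the same 9, 1 was called higher in B6 (Qpct), beside 4.70% of all probesets. B6 and D2 arrays did not overlap at 2 members, Pam and Scg5, beside 3.21% of all probesets. On the Illumina arrays 9 of 9 probes passed the detection filter. There 1 was called higher in D2 (Scg5), beside 4.41% of all 11072 probes, and 1 higher in B6 (Qpct), beside 5.36%. At 1 probe, that of Scg5, the strains did not overlap, beside 2.88% of all probes. A call is an adjusted p under 0.01 in limma, and since the list was chosen with these differences known, the counts are read for nothing more. The median size of the difference was 0.12 over the members and 0.08 over all probesets tested on the Affymetrix arrays, and 0.15 and 0.10 on the Illumina arrays. That choice also favours a larger size among the members, so these sizes are a description only.

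**Figure D2:**
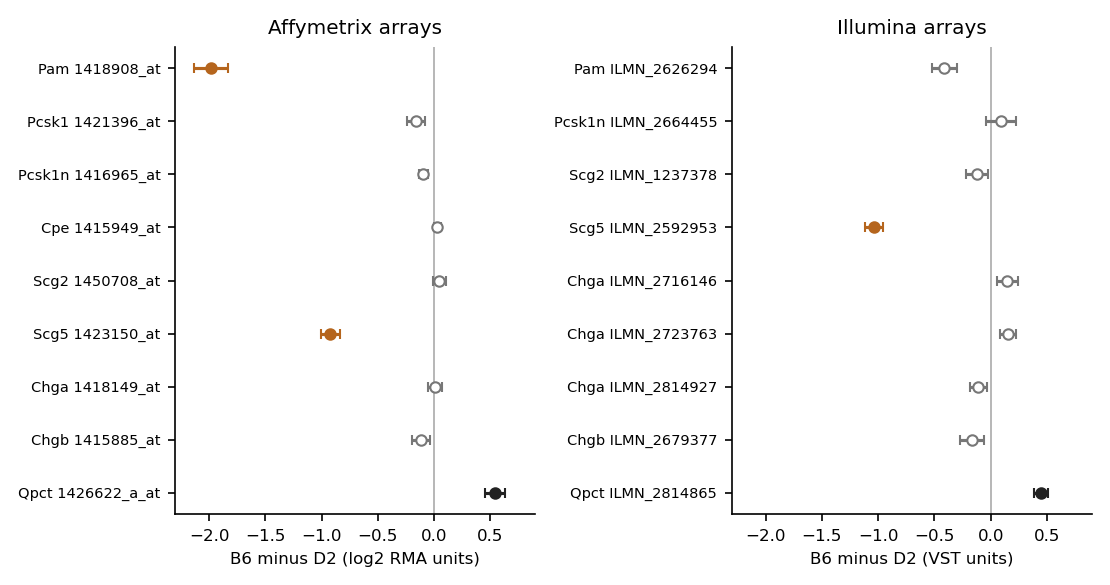
Strain difference (B6 minus D2) of each member that was tested, on the Affymetrix arrays in log2 RMA units and on the Illumina arrays in VST units. Bars are the standard error of the fit, and filled points are those called at an adjusted p under 0.01; Pam and Scg5 stand to the left (higher in D2) and Qpct to the right (higher in B6), with Pam on the Illumina arrays at -0.41 and not called.

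The remaining enzymes and their inhibitor differed little between the strains. Pcsk1 encodes prohormone convertase 1/3, which makes the first cuts in many precursors, and its log2 values were 6.45 to 7.14 on B6 arrays, with a median of 6.87, and 6.8 to 7.32 on D2 arrays, with a median of 7.02, a difference of -0.16 with overlapping ranges (SD 0.22 and 0.14, n = 10 each). Pcsk1n encodes proSAAS, an inhibitor of that convertase. Its Affymetrix values were 11.93 ± 0.09 in B6 and 12.02 ± 0.06 in D2 (SD, n = 10 each), a difference of -0.10, whereas its Illumina probe ILMN_2664455 gave 0.09, with B6 at 10.53 to 11.77 and D2 at 10.50 to 11.75. Its direction therefore differed between the array types, at sizes that were not called on either.

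Cpe, the carboxypeptidase that removes basic residues after the convertases have cut, had a brighter and a dimmer probeset. The brighter had log2 values of 13.47 to 13.61 in B6 and 13.44 to 13.54 in D2, a difference of 0.03 with SDs of 0.04 and 0.03 (n = 10 each). The dimmer lay below the filter on mean level, at 6.01 ± 0.18 and 5.99 ± 0.12 (SD, n = 10 each), and was not tested.

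The granins form the granule core and are themselves cut into peptides. Scg2, the precursor of secretoneurin, had Affymetrix log2 values of 11.50 to 11.83 on B6 arrays (median 11.60) and 11.29 to 11.86 on D2 arrays (median 11.57), a difference of 0.05 with almost complete overlap. Chga had 9.04 to 9.53 and 8.97 to 9.45, a difference of 0.01, and Chgb had 11.37 to 11.95 and 11.61 to 12.17, a difference of -0.12. Neither chromogranin nor Scg2 was called on either array type. Without array 64 the Affymetrix differences were -0.19 for Pcsk1, -0.11 for Pcsk1n, 0.02 for Cpe, 0.03 for Scg2, -0.001 for Chga and -0.13 for Chgb, and none of them was called.

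**Figure D3:**
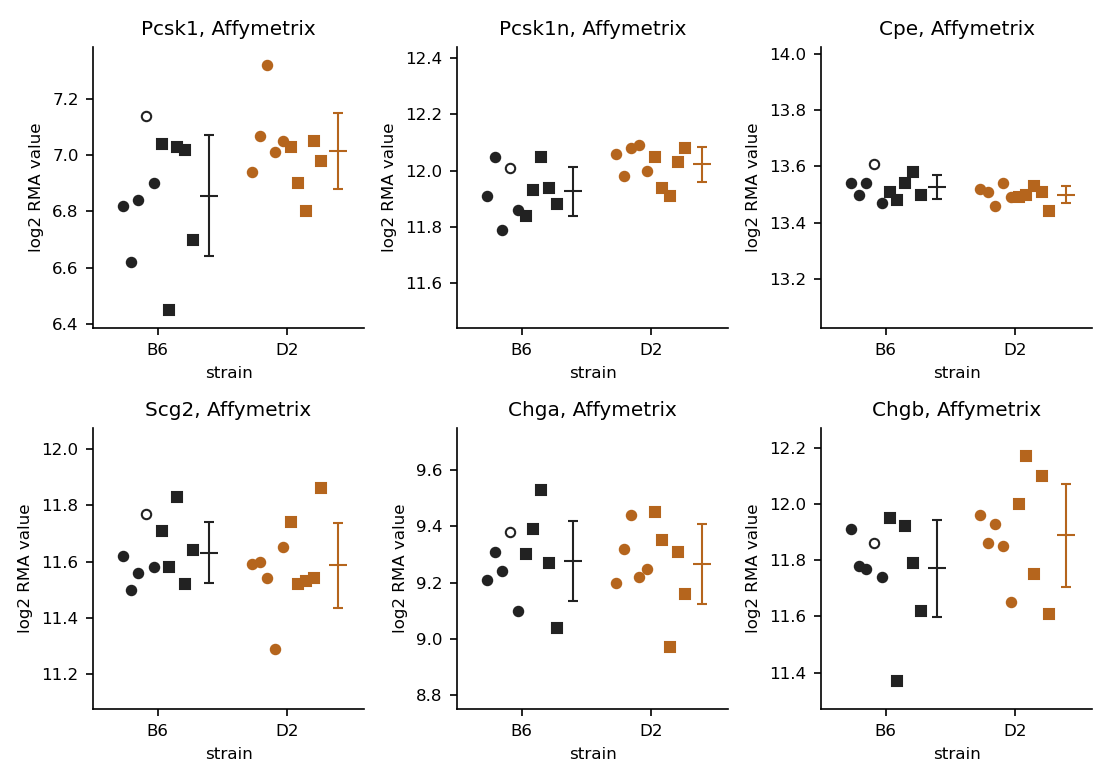
Log2 RMA values of Pcsk1, Pcsk1n, Cpe, Scg2, Chga and Chgb on each Affymetrix array, by strain. Circles are females, squares are males, the open circle is array B6 64, bars show mean ± SD, and every vertical axis spans 1 log2 unit; the strains overlap for all 6 genes.

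On the Illumina arrays the chromogranin probes moved with the dim D2 arrays. Chgb had VST values of 12.34 to 12.99 on the 4 dim D2 arrays and 11.89 to 12.31 on the other 8, beside 11.94 to 12.36 in B6, so its difference of -0.17 became 0.04 without the dim arrays. Chga was read by 3 probes, none of which shared more than 8 consecutive bases with another. On ILMN_2814927 the dim arrays were high, at 10.29 to 10.78 against 9.92 to 10.25 on the other D2 arrays. On ILMN_2716146 they were low, at 9.55 to 9.77 against 9.79 to 10.28. On ILMN_2723763 they were mostly low, at 8.98 to 9.43 against 9.20 to 9.67. The 3 Chga probes differed between the strains by -0.11, 0.15 and 0.15 in that order, and by 0.01, 0.01 and 0.07 without the dim arrays. Scg2 gave -0.12 with all arrays and -0.14 without them.

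**Figure D4:**
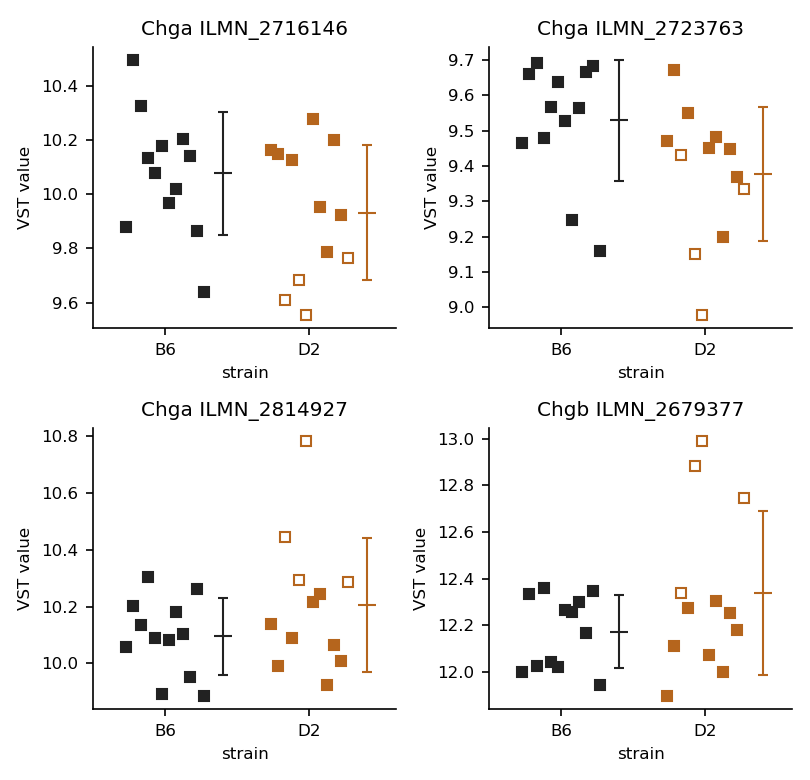
VST values of the 3 Chga probes and the Chgb probe on each Illumina array, by strain, with bars for mean ± SD. Open squares are the D2 arrays 3, 5, 6 and 12, those with the lowest mean bead signal; they are the lowest of the D2 arrays for ILMN_2716146 and the highest for ILMN_2814927 and Chgb.

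Sex and its interaction with strain were not used to choose the members and were tested on the Affymetrix arrays. None of the 9 probesets was called for sex (limma, adjusted p = 1 for each), 0 passed an unadjusted p of 0.05, and 0.0257% of all probesets were called. Female minus male was -0.03 for Pam (standard error 0.15), 0.03 for Scg5 (0.09) and -0.02 for Qpct (0.09), and over the 9 probesets it ran from -0.08 for Scg2 to 0.07 for Pcsk1. None was called for strain by sex (limma, adjusted p = 1 for each), 0 passed an unadjusted p of 0.05, and 0.00% of all probesets were called. The strain difference of Pam differed between females and males by -0.05 with a standard error of 0.31, so a difference between the sexes as large as that standard error could not be detected here.

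Whether members varied together from mouse to mouse was tested on deviations from the mean of the same strain and sex, which takes out the difference between the strain means. Array B6 64 lay between the strains, at 0.67 for Pam and 0.30 for Scg5 on the antilog scale above. Its deviations can therefore still carry part of the strain difference, also in the r within B6. Pam was set against 8 members on the Affymetrix arrays and against 6 on the Illumina arrays, with 2-sided permutation tests adjusted within each array type. Each gene was represented by its brightest probe, which for Chga on the Illumina arrays was ILMN_2814927, and the other 2 Chga probes were not set against Pam. Pcsk1n rose and fell with Pam over the 20 Affymetrix mice (Pearson's r = 0.69, adjusted permutation p = 0.00536, and Spearman's rho = 0.73, adjusted permutation p = 0.00496). Without the 2 arrays farthest from the median of Pam, B6 64 and B6 68, r was 0.64, and within B6 and within D2 it was 0.76 and 0.47 (n = 10 each). Illumina values did not show it, with r = 0.11 over 24 mice (adjusted permutation p = 0.624) and rho = 0.16 (adjusted permutation p = 0.647), r = 0.32 without D2 5 and B6 2, and r = -0.26 within B6 and 0.41 within D2 (n = 12 each).

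Scg5 also gave a high r with Pam on both array types, but it rested on the 2 arrays farthest from the median of Pam. On the Affymetrix arrays r was 0.71 (adjusted permutation p = 0.0113) and rho 0.32 (adjusted permutation p = 0.342), and r fell to 0.25 without B6 64 and B6 68. Within B6 and within D2 it was 0.79 and -0.02 (n = 10 each). For the Illumina probes r was 0.56 (adjusted permutation p = 0.0369) and rho 0.19 (adjusted permutation p = 0.647), and r was 0.11 without D2 5 and B6 2. Within B6 and within D2 it was 0.34 and 0.65 (n = 12 each). No other member, by its brightest probe, passed an adjusted p of 0.05 with Pam on either array type, the closest being Chgb on the Illumina arrays at r = -0.47 (adjusted permutation p = 0.0616).

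**Figure D5:**
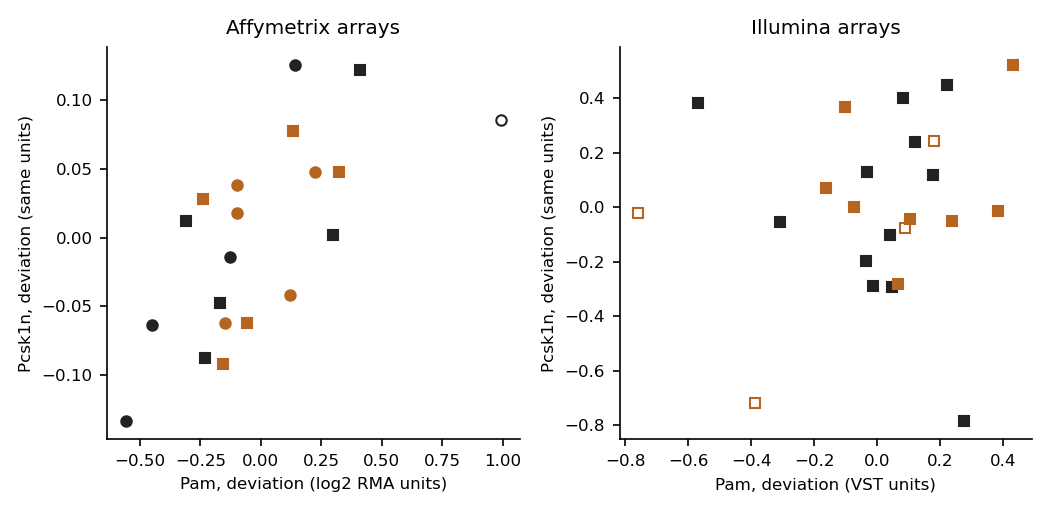
Deviation of Pcsk1n from the mean of the same strain and sex against that of Pam, on the Affymetrix arrays in log2 RMA units and on the Illumina arrays in VST units. Black is B6, brown is D2, circles are females and squares males, and open symbols mark B6 64 and the dim D2 arrays; the points rise together on the Affymetrix arrays (r = 0.69) and scatter on the Illumina arrays (r = 0.11).

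The 3 genes whose Affymetrix values were most like those of Pam over the 20 arrays, of 10777 genes compared, were Clasp2 (r = 0.98), Rbm45 (r = 0.98) and Gnb1 (r = 0.98). All 3 were higher in D2 and lay between the strains on array 64, so this likeness mostly restates the strain difference and is given as a description.

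Other genes of the pathway were taken from lists that were also drawn up with earlier results known. Their counts are of genes, and a gene counts as called if any of its probesets or probes was. The shares below are per probeset or probe, so they are not a matched baseline for these counts. Over all features, 5.00% of Affymetrix probesets were called higher in D2 and 4.70% higher in B6, and 4.41% and 5.36% of Illumina probes. Of 14 other processing enzymes tested on the Affymetrix array and 12 on the Illumina array, Rnpep, a secreted aminopeptidase that removes basic residues, was the only one called. It was higher in B6 on both, at 8.51 ± 0.16 against 8.30 ± 0.08 (SD, n = 10 each) on the Affymetrix arrays and at 10.62 ± 0.19 against 10.18 ± 0.22 (SD, n = 12 each) on the Illumina arrays. Other granule proteins tested numbered 14 on the Affymetrix array and 13 on the Illumina array. Among them Ica1, a granule-associated autoantigen, was higher in B6 on both array types, by 0.43 and 0.37. Its second Affymetrix probeset gave -0.04 and was not called. Cyb561, the membrane cytochrome that supplies reducing equivalents to amidating granules, was higher in B6 by 0.16 on the Affymetrix arrays and gave 0.02 on the Illumina arrays, not called. Nucb1, a calcium-binding Golgi protein, and Ptprn2, a granule membrane protein, were higher in D2 on the Affymetrix arrays, with differences of -0.18 each. The 2 Illumina probes of Nucb1 gave -0.21 and 0.06 and the second probeset of Ptprn2 gave -0.12, none of them called. Among Illumina probes, Syt4, a synaptotagmin of dense-core vesicles, and Vgf, a granin-like precursor, were higher in D2, with differences of -0.27 and -0.26. On the Affymetrix arrays neither was called, with Syt4 at -0.04 and -0.13 and Vgf in the other direction at 0.15.

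Copper supply and the partners that bind the tail of Pam gave no call among 7 genes on the Affymetrix array. On the Illumina array 2 of 5 were called, Ccs, the copper chaperone of superoxide dismutase, at -0.31, and Kalrn, an exchange factor that binds Pam, at -0.39. Ccs was not called on the Affymetrix array at -0.14, nor was any probeset of Kalrn. Of the peptide precursors themselves, none of 26 genes was called on the Affymetrix array and 1 of 15 on the Illumina array, Cort, the precursor of cortistatin, at 9.95 ± 0.24 in B6 and 9.50 ± 0.14 in D2 (SD, n = 12 each). Its other Illumina probe gave 0.32 and its Affymetrix probeset 0.22, neither of them called. No gene that degrades peptides was called on either array, among 14 and 11 tested. These counts too are per gene, while the shares over all features are per probeset or probe. Of all Affymetrix probesets and Illumina probes, 5.00% and 4.41% were called higher in D2, and 4.70% and 5.36% higher in B6. The median difference over each of these lists lay between -0.14 and 0.00, beside -0.03 and -0.02 over all features.

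The upstream sequences of the members were searched for the cAMP response element TGACGTCA, a motif that equals its own reverse complement, because granin and convertase genes are known cAMP targets. RefSeq windows of 300 bases (250 before and 50 after the start, GRCm38.p6, the C57BL/6J reference) were given for 7 of the 9 measured genes (not Cpe and Qpct), and 3 of these held it, Pcsk1, Scg2 and Chgb. The motif was in 1.79% of all 32851 windows and, counted by gene, in 2.03% of the 27025 genes with windows. Since the motif was picked for known targets of this kind, the count among the members beside these shares is a description. It is shown in capitals in the strand of the gene, with 11 bases on each side.
Pcsk1 (chr13:75089768-75089797, plus strand): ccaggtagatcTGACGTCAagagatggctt
Scg2 (chr1:79440076-79440105, minus strand): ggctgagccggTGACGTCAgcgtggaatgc
Chgb (chr2:132781559-132781588, plus strand): gggctgctccgTGACGTCAgggctgagcga
The motif began 78, 68 and 72 bases before the start in these genes. The windows of Pam, Pcsk1n, Scg5 and Chga did not hold these 8 letters. A shorter piece of the motif, also searched for, was in the windows of Scg5 and Chga but not in those of Pam and Pcsk1n. This piece was in 20.8% of all windows. None of the 3 genes with the full motif was called for strain on the arrays. Whether the motif has a role in the strain differences was not tested. A match is a description of the reference sequence, and the D2 sequence was not examined.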

How the data were processed

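Striatal RNA was measured with 1 array per mouse. The Affymetrix values are RMA values on a log2 scale deposited by the authors, made from perfect-match probes with masking of probes that span SNPs or align to several places. The labels name MAS5 version 5.0, whose calls were not used here. The Illumina values were deposited by the authors on a VST scale, treated here as log2-like; the sorted values of all arrays were equal within 0.0019. The authors also deposited bead signal intensity per probe from GenomeStudio and a detection p-value, which were used for filters and alternatives.

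Probesets in the upper 50% by mean (19437 of 38870 with values) and Illumina probes detected at a p under 0.05 on all arrays of at least 1 strain (11072 of 14185) were fitted in R 4.3.3 with limma 3.58.1 (lmFit, eBayes; statmod 1.5.0). The Affymetrix model included sex. Calls required an adjusted p under 0.01 by the method of Benjamini and Hochberg. The fits were also run on simulated data. Probes were named from the platform annotation. Alternatives covered normalization, filters, sex, variance models, thresholds, an array-number block and leaving out arrays. Permutation tests drew 100000 resamples. Fold changes are antilogs of RMA differences. Genes named are all members, and called genes of the pathway lists. The members and lists were chosen with earlier results of these data known. The number of arrays limits the precision, and p-values measure the spread between mice. RNA-Seq libraries and 1 listed gene were not analysed here.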

Additional observations from a re-analysis of the deposited data

Results flagged for a closer look

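Among 20 groups of 10 Affymetrix arrays (9 tested probesets and 1 that was below the filter, in each strain), 2 held an array whose gap to the nearest other array exceeded the critical share of the range in Dixon's test at the level of 5%. Chance flags about 1 in 20 such groups. The first was Scg5 in B6, where array 64 had a value of 12.15 against 11.59 for the next array, a gap of 0.61 of the range. This is the array that lay between the strains over many other probesets. The second was Pcsk1 in D2, where array 73 had a value of 7.32 against 7.07 for the next, a gap of 0.48 of the range. The groups of 12 Illumina arrays were too large for this rule.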

How the results depend on the processing

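Pam and Scg5 were called on the Affymetrix arrays under each of 30 alternatives, and Qpct under 28, the exceptions being males only and females only. Leaving out each array in turn gave -2.10 to -1.92 for Pam, -1.002 to -0.89 for Scg5 and 0.50 to 0.57 for Qpct. Illumina calls of Scg5 held under each of 35 alternatives, with -1.09 to -1.01 when arrays were left out in turn, and those of Qpct under each of the 34 that tested it, with 0.42 to 0.47. When detection on all 24 arrays was required, 1 Illumina member was called, since the Qpct probe, detected on 11 of 12 D2 arrays, was no longer tested. Pam was not called on the Illumina arrays with all arrays, but it was in 7 of 35 alternatives (array weights, a trended and robust fit, a threshold of 0.05, without the 4 dim D2 arrays, and without B6 11, D2 5 or D2 6), with -0.48 to -0.36 when arrays were left out in turn. Centring log2 signals on each array's median moved the median of all Illumina probes to 0.18 and raised the share of calls higher in B6 from 54.9% to 85.4%. The uncalled differences of Scg2, Chgb and Chga ILMN_2814927 changed sign there, to 0.17, 0.13 and 0.14, that of Pam fell in size to -0.18 and was not called, that of Pcsk1n was 0.37, that of Scg5 -0.74 and that of Qpct 0.80. Illumina array numbers are shared by the strains, but same-numbered arrays did not vary together (correlations of -0.43 to 0.29, with 0 of 12 B6 arrays closest to their own number), and with the number as a replicate block 2 members and 789 probes were called, against 1082 probes without it. The number of arrays limits the precision. The difference of the dim Qpct probe was 0.67 with quantile-normalized log2 signals and 1.15 with neqc, which also corrects the background.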
